A study of Mus musculus with 7 samples.

Results

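The genes described here encode the proteins of the mitochondrial ribosome, as far as their symbols start with Mrpl or Mrps followed by a digit. They were measured in CD11c-positive cells that had been sorted magnetically from mouse spleens 7 days after an allogeneic transplant of hematopoietic stem cells, that is, of blood-forming cells from a genetically different donor. A total of 4 arrays carried the label wild type and 3 the label Atg16l1 hypomorph, an allele that keeps part of the function of this autophagy gene, all on the C57BL/6J background. One source gives an age of 8 weeks and another 9 weeks. The labels give neither whether the genotype is that of the recipient or of the donor, nor whether the arrays stand for different animals, so a p-value here reflects the spread among 7 arrays, which may be technical. Trizol served for the extraction, and 100 ng of total RNA per array went onto the Mouse430A GeneChip, on which a gene is read by 1 or several probe sets. Each value is a deposited log2 probe set value, so that a difference of 1 is a doubling.

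By this rule 74 genes were members, 47 with an Mrpl and 27 with an Mrps symbol, of 12393 distinct genes that a probe set named alone. Each gene is given by the probe set with the highest mean over the 7 arrays. A further 4 protein-coding genes of a RefSeq table fit the name: Mrpl30 and Mrpl53 were read only by probe sets that also name a second gene, and Mrps10 and Mrps27 were named by no probe set, so their values are not given. The gene means over the 7 arrays lay between 6.29 and 10.1, and all 74 were above 5.51, the median of all probe set means. No filter on low values was applied, so every member entered the comparison.

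The mitochondrial ribosome translates the few messenger RNAs made from mitochondrial DNA, which encode core subunits of the respiratory chain and of the ATP synthase. All of its proteins are encoded in the nucleus, made in the cytosol and imported, while its ribosomal RNAs come from mitochondrial DNA. The small subunit binds the messenger RNA and decodes it, and the large subunit joins the amino acids and leads the new chain to the inner membrane. Many of its proteins have a bacterial counterpart, and others are particular to mitochondria. Atg16l1 acts in autophagy, where it directs LC3 onto growing autophagosome membranes, and autophagosomes also take up mitochondria for degradation.

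Array medians over all 22625 probe sets ran from 5.46 to 5.53, and each array's mean correlation with the rest from 0.990 to 0.993. Atg16l1 itself read 7.42, 7.33, 7.26 and 7.20 on the wild-type arrays and 6.86, 6.76 and 6.94 on the hypomorph arrays, without overlap, with a log2 change of -0.45 (limma adjusted p = 0.462). Whether its probe set covers the altered stretch of the gene was not examined. Markers for which dendritic cells are known were present in both groups, with mean log2 values of 8.24 and 8.29 for Itgax, the gene of CD11c, and of 11.99 and 12.07 for H2-Aa in wild type and hypomorph, whereas Cd209a was at 3.11 in both and Xcr1 at 4.17 and 4.22. The 12 markers of red pulp macrophages were also strong. The measurement is of bulk RNA, in which fewer cells of a type and less RNA per cell cannot be told apart.

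Most mitochondrial ribosomal protein genes read slightly lower in the hypomorph, and none passed the test. A negative log2 change, hypomorph minus wild type, was found for 65 of the 74 genes, compared with 49.3% of all probe sets tested. The median change of the 74 genes was -0.09, a level 1.06-fold lower, against 0.00 over all probe sets. The changes ran from -0.25 for Mrpl19 to 0.25 for Mrps6, with quartiles at -0.13 and -0.03. Of the 5260 other genes with a mean in the same range of levels, 57.0% had a negative change, with a median of -0.02. The shift was small as well as shared: none of the 74 genes differed by more than 0.25 in either direction, as 17.5% of those other genes did.

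**Figure D1:**
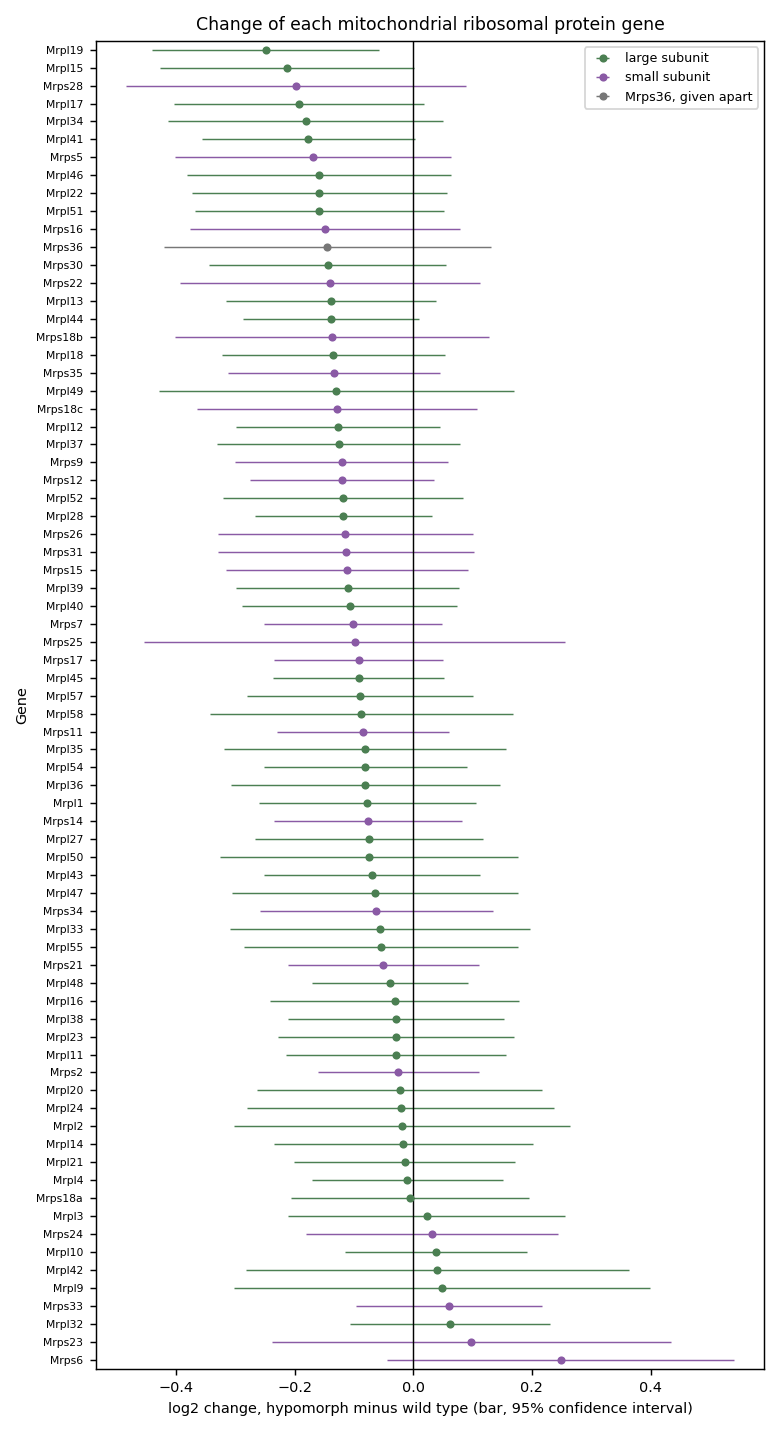
Log2 change (hypomorph minus wild type, horizontal axis) of each of the 74 mitochondrial ribosomal protein genes, ordered from lowest to highest, with bars for the 95% confidence interval of limma and colours for the subunit. The points of 65 genes lie below 0, and the interval of 1 gene, Mrpl19, excludes 0.

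No member passed an adjusted p of 0.05 in limma with Benjamini-Hochberg adjustment over all 22625 probe sets, where 0% of probe sets passed. The members' adjusted p ran from 0.644 to 0.990. At an unadjusted p under 0.05, 1 member was lower (Mrpl19) and 0 were higher, compared with 3.34% and 4.35% of all probe sets. In this comparison the members were thus not called more often than the rest. Some alternatives gave more lower members, as listed at the end. For 3 members (Mrpl19, Mrpl28 and Mrpl44) every hypomorph value was below every wild-type value, beside 2.50% of all probe sets, and for 0 every one was above, beside 3.07%. The 3 genes are 4.05% of the members, and 4.05% of the other genes in their range of levels were lower without overlap. The 95% confidence interval reached 0.203 to either side of the change in the median gene, so a shift of the size seen could not be resolved gene by gene. The intervals of all 74 genes lay between -0.48 and 0.54.

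The arrays differed within both groups. The median deviation of the 74 genes from their own 7-array means was 0.08, 0.08, -0.03 and 0.01 in wild-type arrays 1 to 4 and -0.02, -0.02 and -0.11 in hypomorph arrays 1 to 3. The group medians thus overlapped, since wild-type array 3 lay below hypomorph arrays 1 and 2. Hypomorph array 3 was the lowest of the 7 arrays for 31 genes, hypomorph arrays 1 and 2 for 13 and 14, and wild-type array 1 for 1. Wild-type array 1 was the highest for 26 genes and wild-type array 2 for 19, while hypomorph array 3 was the highest for 1. Set against the wild-type mean of each gene, 52, 50 and 68 of the 74 genes were lower in hypomorph arrays 1, 2 and 3, with medians of -0.06, -0.07 and -0.14, where the same count over the other genes in the range of levels gave 53.4%, 52.2% and 53.5%. All 3 hypomorph arrays were below the wild-type mean for 34 genes and above it for 1, Mrps6. The share of other genes with all 3 hypomorph arrays on the same side is not given here. Without hypomorph array 3 the change was negative for 57 of 74 genes, with a median of -0.07.

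**Figure D2:**
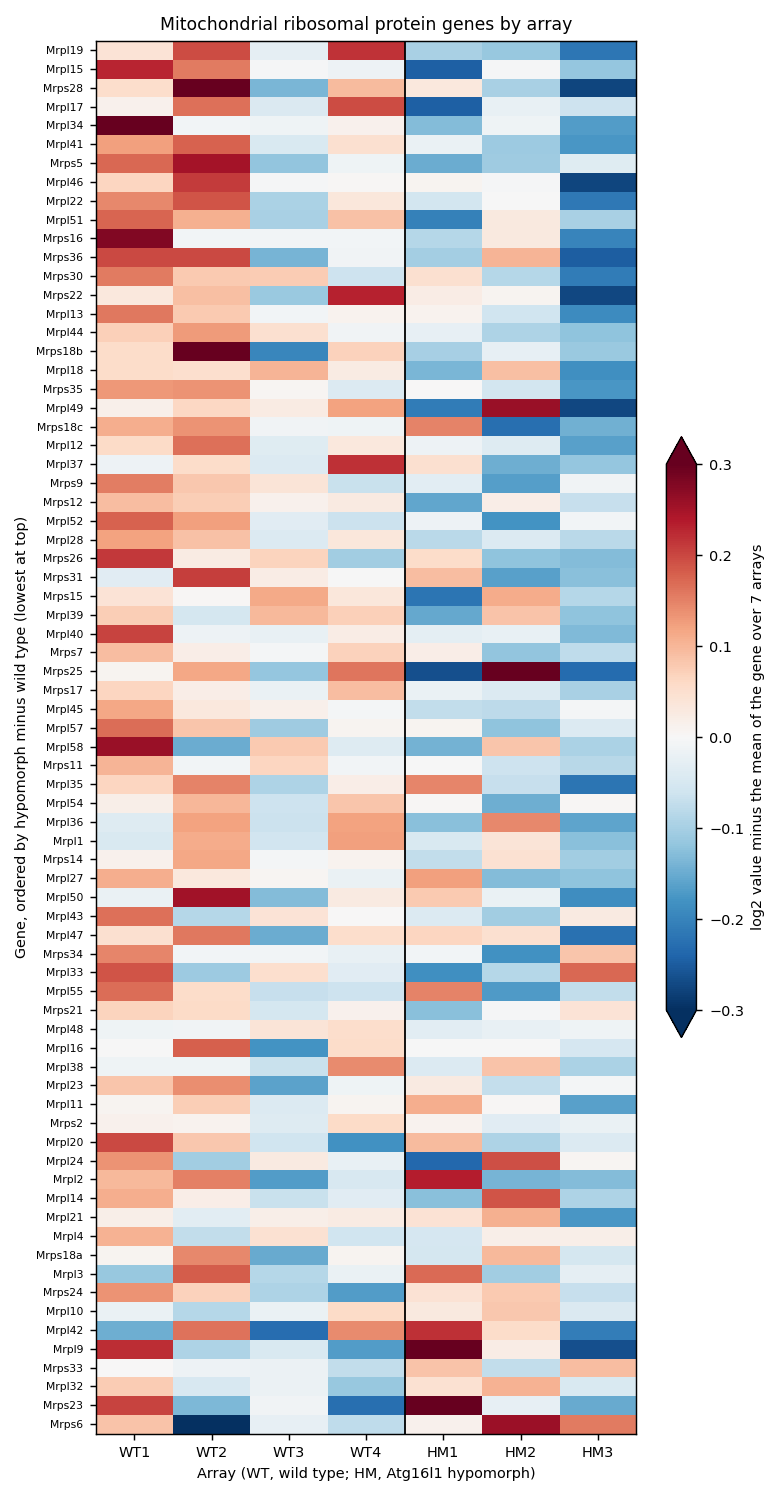
Log2 value of each of the 74 genes (vertical axis, ordered as by change) in each of the 7 arrays (horizontal axis), as the difference from the gene's mean over the arrays in colour, red above and blue below, with the scale ending at 0.3 either way. Hypomorph array 3 was the lowest array for 31 genes, and wild-type array 1 was the highest for 26.

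Other gene lists also varied between the arrays. Of the erythroid markers, 10 of 14 were measured, with summed log2 values from 76.2 to 82.9 in wild type and from 58.9 to 83.7 in the hypomorph. Of these 10 markers 9 were lower, with a median change of -0.77, and 6 at -0.08 without hypomorph array 3. Their median difference from the wild-type mean was -0.78, 0.38 and -2.04 in hypomorph arrays 1, 2 and 3. The 29 cell cycle genes measured, of 30, had summed values from 265.0 to 270.3 and from 248.4 to 269.4, with medians of -0.39, 0.07 and -0.65 in the same arrays. All 29 were lower, with a median change of -0.31, and 28 at -0.16 without hypomorph array 3. In hypomorph arrays 1, 2 and 3, 9, 0 and 9 of the 10 erythroid genes lay below their wild-type mean. The counts were 28, 10 and 29 for the 29 cell cycle genes, and 52, 50 and 68 for the 74 mitochondrial ribosomal genes. Of 13 cell type marker lists, 3 had array medians that did not overlap between the groups. These were the basophil and mast cell list, 8 of 9 measured and all 8 lower (summed values from 48.2 to 54.7 and from 43.3 to 44.8), the megakaryocyte list, 7 of 10 measured and 6 lower (32.6 to 33.1 and 31.2 to 32.6), and the plasma cell list, 6 of 8 measured and all 6 higher (38.2 to 40.1 and 40.7 to 42.8). No value on the log2 scale was 0, but 1, 0 and 1 markers of these lists lay below the lower quartile of the arrays. Other lists had most markers on one side although their array medians overlapped: 11 of 11 neutrophil markers were lower (median -0.63, and -0.23 without hypomorph array 1) and 7 of 8 pancreatic acinar markers (-2.12, with summed values from 43.2 to 69.6 in wild type and from 36.5 to 51.6 in the hypomorph). In the other direction, 12 of 12 red pulp macrophage markers were higher (0.24, and 0.04 and 0.43 without wild-type arrays 1 and 4) and 10 of 11 stroma and endothelium markers (0.34, and 0.16 without hypomorph array 1). Of the stroma and endothelium markers 3 lay below the lower quartile of the arrays, and 0 of the neutrophil, pancreatic acinar and red pulp macrophage markers did. The part of any of these lists in the result was not tested.

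**Figure D3:**
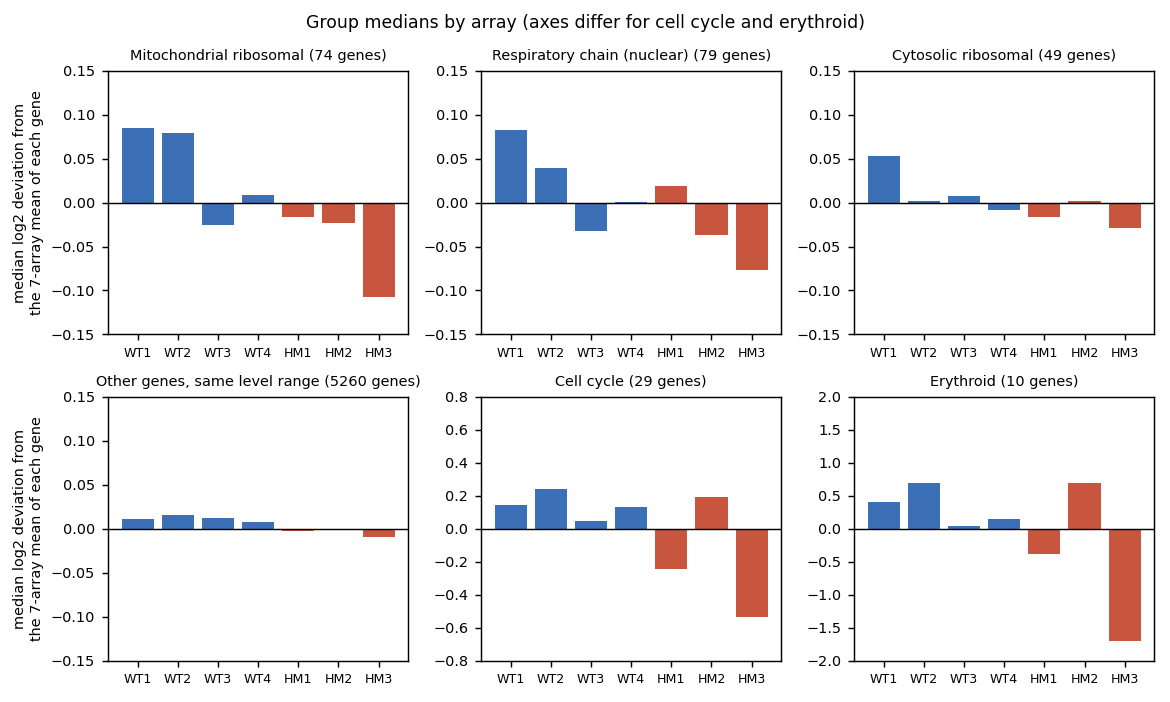
Median log2 deviation from each gene's 7-array mean (vertical axis) in each array (horizontal axis) for the 74 mitochondrial ribosomal genes, the 79 nuclear respiratory chain genes, the 49 cytosolic ribosomal protein genes, the 5260 other genes in the members' range of levels, and the cell cycle and erythroid lists, which have wider axes. For the mitochondrial ribosomal genes the bar of hypomorph array 3 is the lowest at -0.11, and it is also the lowest for the cell cycle and erythroid lists. The cell cycle and erythroid bars are below 0 in hypomorph array 1 and above 0 in hypomorph array 2.

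The small shift was found in both subunits. Of the 49 genes of the large subunit, which here include Mrps18a and Mrps30 in spite of their names, 44 read lower, with a median change of -0.08. Of the 24 genes of the small subunit, 20 read lower, with a median of -0.11. The proteins with a bacterial counterpart and those particular to mitochondria both read mostly lower: 38 of 44 were lower with a median of -0.08, and 26 of 29 with a median of -0.11. Within the large subunit the medians were -0.06 for the 29 conserved and -0.10 for the 20 mitochondrial proteins, and within the small subunit -0.10 for 15 and -0.11 for 9. The differences between these medians were not tested. Without hypomorph array 3 the medians of the large subunit, of the conserved proteins and of the conserved proteins of the large subunit became -0.04, -0.04 and -0.03. Leaving out wild-type array 1 or 3 or hypomorph array 1 put the last of these at -0.04, -0.09 and -0.10, and leaving out wild-type array 2 put the 9 mitochondrial proteins of the small subunit at -0.07.

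Mrpl19, the counterpart of a bacterial protein at the interface of the subunits, had the lowest change of the members. Its log2 values were 8.01, 8.17, 7.94 and 8.19 in wild-type arrays 1 to 4 and 7.87, 7.86 and 7.75 in hypomorph arrays 1 to 3. Every hypomorph array was below every wild-type array. The means were 8.08 ± 0.118 (SD, n = 4) and 7.83 ± 0.0650 (SD, n = 3), a change of -0.25 with a 95% confidence interval from -0.44 to -0.06 (limma adjusted p = 0.644). The exact two-sided permutation p was 0.0571, where 0.0286 is the smallest that 4 and 3 arrays can give. A second probe set of the gene had a change of -0.10 with overlapping groups, and the dimmest, with mean log2 values of 2.36 and 2.44, one of 0.08.

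Mrpl44 and Mrpl28 were the others whose groups did not overlap. Mrpl44 encodes a large subunit protein with a fold of the ribonuclease III family, and human variants of the gene cause a mitochondrial disease. It read 8.24, 8.30, 8.22 and 8.16 on the wild-type arrays and 8.15, 8.08 and 8.05 on the hypomorph arrays. The lowest wild-type array and the highest hypomorph array were thus close together, and the change was -0.14 (interval -0.29 to 0.01, limma adjusted p = 0.644). All 3 probe sets of Mrpl44 were lower, by -0.14, -0.10 and -0.17. Mrpl28, the counterpart of a bacterial large subunit protein, read 8.18, 8.15, 8.02 and 8.10 on the wild-type arrays and 7.98, 8.02 and 7.98 on the hypomorph arrays. Here the nearest arrays of the groups were less than 0.01 apart, and the change was -0.12 (interval -0.27 to 0.03, limma adjusted p = 0.662). The 3 probe sets of Mrpl28 all separated the groups, with changes of -0.12, -0.20 and -0.17.

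The remaining genes with the lowest p among those with a negative change all belonged to the large subunit. Mrpl15, a conserved protein, read 8.85, 8.78, 8.62 and 8.61 on the wild-type arrays and 8.38, 8.62 and 8.51 on the hypomorph arrays. Hypomorph array 2 lay at the level of wild-type array 3, so the groups overlapped, and the change was -0.21 (interval -0.43 to 0.00, limma adjusted p = 0.644). Mrpl41, which is particular to mitochondria, read 9.01, 9.06, 8.84 and 8.93 and 8.86, 8.77 and 8.71. Only hypomorph array 1 reached the wild-type range, and the change was -0.18 (interval -0.36 to 0.00, limma adjusted p = 0.644). Mrpl17, conserved, read 8.29, 8.44, 8.23 and 8.47 and 8.03, 8.25 and 8.21, with hypomorph array 1 below all others and array 2 within the wild-type range, and a change of -0.19. Mrpl34, a very small conserved protein, read 8.21, 7.88, 7.88 and 7.90 and 7.76, 7.88 and 7.72. Wild-type array 1 stood above the other 6 arrays, and the change of -0.18 became -0.10 without it. Mrpl13, conserved, read 9.62, 9.54, 9.45 and 9.47 and 9.47, 9.40 and 9.27, with hypomorph array 1 inside the wild-type range and a change of -0.14.

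Mrps6 was the 1 gene with every hypomorph array above the wild-type mean. It is the counterpart of a bacterial small subunit protein that pairs with S18. It read 7.06, 6.56, 6.95 and 6.90 on the wild-type arrays and 6.99, 7.23 and 7.13 on the hypomorph arrays. Wild-type array 2 was far below the other arrays, and wild-type array 1 was above hypomorph array 1, so the groups overlapped. The change was 0.25 (interval -0.04 to 0.54, limma adjusted p = 0.653), and 0.15 without wild-type array 2. The other 8 genes with a positive change had values from 0.02 to 0.10. Mrps33 (0.06), Mrps23 (0.10) and Mrpl42 (0.04) encode proteins particular to mitochondria. Mrpl32 (0.06), which is cleaved by the m-AAA protease before it enters the ribosome, Mrpl10 (0.04), Mrps24 (0.03), Mrpl9 (0.05) and Mrpl3 (0.02) have bacterial counterparts. Of these 8, Mrps33, Mrpl32 and Mrpl10 kept a positive change under every alternative tried, while the other 5 turned negative under at least 1.

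**Figure D4:**
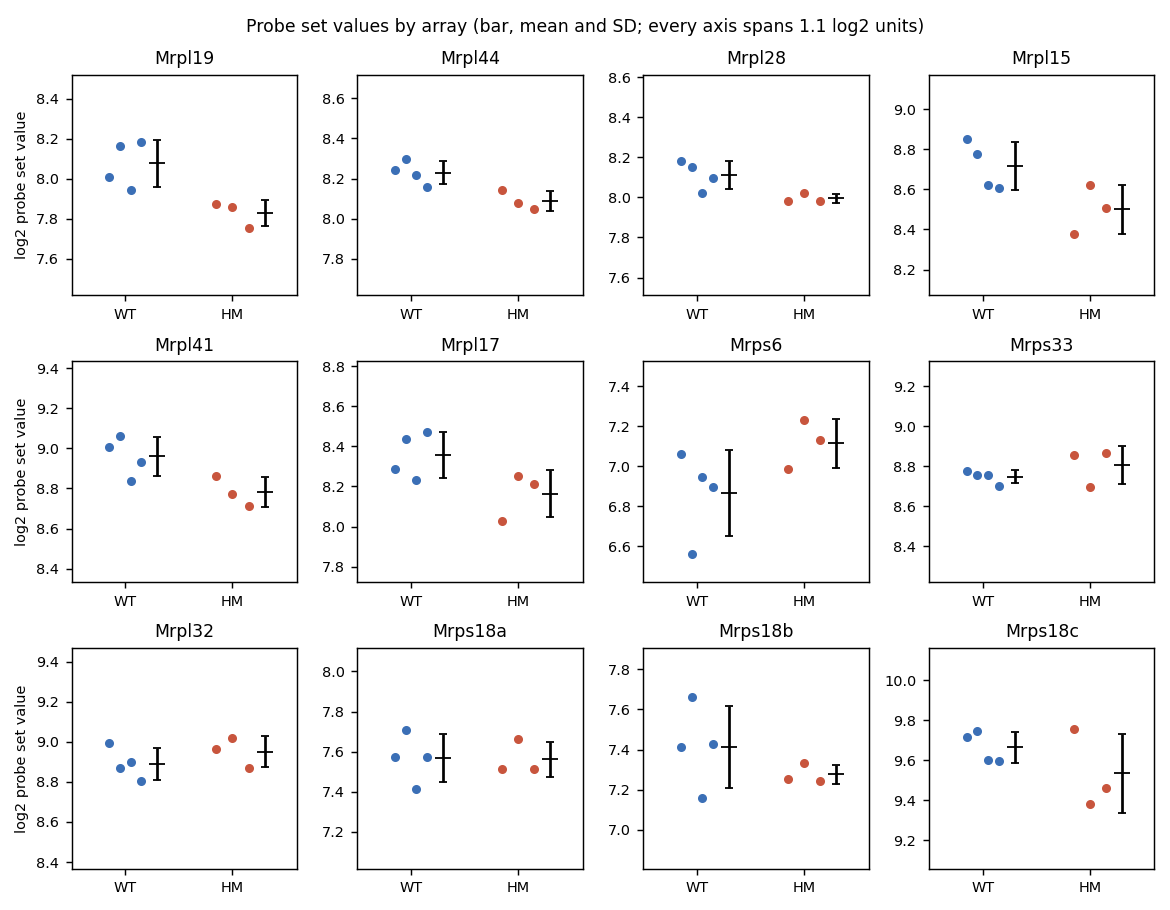
Log2 probe set value (vertical axis, spanning 1.1 log2 units in each panel) of 12 mitochondrial ribosomal protein genes in wild type (WT, 4 arrays) and the Atg16l1 hypomorph (HM, 3 arrays), with a point for each array and a bar for the mean and SD. The groups do not overlap for Mrpl19, Mrpl44 and Mrpl28, and wild-type array 2 stands low for Mrps6.

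The Mrps18 genes belong to the same family and are given side by side. All 3 encode relatives of bacterial S18. Mrps18c is counted here as its counterpart in the small subunit, whereas Mrps18a, in the large subunit, and Mrps18b, in the small one, are counted with the proteins particular to mitochondria. Mrps18a read 7.57, 7.71, 7.41 and 7.57 on the wild-type arrays and 7.51, 7.66 and 7.51 on the hypomorph arrays, with full overlap and a change of -0.01. Mrps18b read 7.41, 7.66, 7.16 and 7.43 and 7.26, 7.33 and 7.25: the wild-type arrays spread wider than the difference of -0.14. Mrps18c read 9.72, 9.74, 9.60 and 9.60 and 9.76, 9.38 and 9.46, with hypomorph array 1 above every wild-type array although the change was -0.13. The sequence upstream of each gene is shown so that the family can be compared there. Each line holds the 250 bases before the annotated start in the RefSeq promoter table (GRCm38.p6), 5′ to 3′ on the strand of the gene, with matches to any of the motifs CCGGAAG (bound by ETS factors such as GABPA), GCATGCGC (NRF1), AAGATGGC (YY1) and CACGTG (the E-box of MYC and MAX) in capitals, searched on both strands. They lie at chr17:46110754-46111003 on the plus strand for Mrps18a, at chr17:35916441-35916690 on the minus strand for Mrps18b and at chr5:100798509-100798758 on the plus strand for Mrps18c.
Mrps18a: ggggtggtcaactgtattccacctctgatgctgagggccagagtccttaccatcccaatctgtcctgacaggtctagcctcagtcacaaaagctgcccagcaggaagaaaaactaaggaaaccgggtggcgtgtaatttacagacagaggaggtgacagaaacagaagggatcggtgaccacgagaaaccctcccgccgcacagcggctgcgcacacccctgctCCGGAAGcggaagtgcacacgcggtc
Mrps18b: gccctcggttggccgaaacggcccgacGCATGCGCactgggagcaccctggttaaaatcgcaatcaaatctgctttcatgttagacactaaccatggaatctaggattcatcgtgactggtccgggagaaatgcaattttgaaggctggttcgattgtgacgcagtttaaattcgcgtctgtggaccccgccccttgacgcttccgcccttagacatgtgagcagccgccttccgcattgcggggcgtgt
Mrps18c: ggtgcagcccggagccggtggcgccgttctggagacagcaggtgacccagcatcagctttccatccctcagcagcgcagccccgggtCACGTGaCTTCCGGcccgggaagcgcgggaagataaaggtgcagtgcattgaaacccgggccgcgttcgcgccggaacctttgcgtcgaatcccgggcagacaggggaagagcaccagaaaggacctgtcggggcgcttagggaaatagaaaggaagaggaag
In these bases Mrps18a held CCGGAAG close to its start, Mrps18b GCATGCGC far upstream, and Mrps18c CACGTG with the reverse of CCGGAAG 1 base after it. In the 50 bases after the start, which are not shown, Mrps18b also held the reverse of CCGGAAG and a further GCATGCGC, and Mrps18a AAGATGGC, so that CCGGAAG was in the promoters of all 3 when 300 bases are counted.

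Promoters could be examined for 65 of the 74 genes, with 71 promoters of 300 bases (250 before and 50 after the start), and Mrpl19 was not among them. CCGGAAG was in 33.8% of these promoters, compared with 8.86% of all 32851 promoters of the table and 20.4% of those of genes in the same range of levels. GCATGCGC was in 11.3%, 2.71% and 5.82%, and AAGATGGC in 15.5%, 2.75% and 5.07%. CACGTG was in 9.86% of the members' promoters, 7.15% of all and 10.8% of those of genes in the same range. Mrpl2 counted here with 3 promoters. By gene, CACGTG was in 5 of the 65 members (7.69%), 8.09% of all genes and 12.9% of genes in the same range. For the other motifs the shares by gene kept the same order as by promoter. The median GC content was 58.7%, 52.7% and 61.0%. Matches of different motifs were counted separately where they overlapped, and a match is a run of letters, not a measured binding site. Among the 24 genes with CCGGAAG 21 were lower, with a median change of -0.10, and among the 41 without it 35, with a median of -0.08. For GCATGCGC these were 5 of 8 (-0.08) with it and 51 of 57 (-0.09) without it, for AAGATGGC 8 of 11 (-0.08) and 48 of 54 (-0.09), and for CACGTG 5 of 5 (-0.08) and 51 of 60 (-0.09). No difference between genes with and without a motif was tested. Mrpl17 and Mrpl44, both among the genes with the lowest p, are shown in the same way, as a promoter with and one without matches. Mrpl17 (chr7:105811088-105811337, minus strand) carried CCGGAAG and the reverse of GCATGCGC, and Mrpl44 (chr1:79775768-79776017, plus strand) carried none of the 4 motifs.
Mrpl17: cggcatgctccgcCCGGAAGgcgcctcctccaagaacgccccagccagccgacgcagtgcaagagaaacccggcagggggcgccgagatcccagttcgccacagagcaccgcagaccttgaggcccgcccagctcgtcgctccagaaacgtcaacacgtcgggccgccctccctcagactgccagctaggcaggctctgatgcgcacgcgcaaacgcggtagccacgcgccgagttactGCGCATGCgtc
Mrpl44: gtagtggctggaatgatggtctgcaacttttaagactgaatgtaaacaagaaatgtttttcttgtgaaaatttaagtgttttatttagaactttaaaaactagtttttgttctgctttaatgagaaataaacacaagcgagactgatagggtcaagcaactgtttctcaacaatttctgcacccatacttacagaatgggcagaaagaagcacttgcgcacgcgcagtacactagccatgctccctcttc
For Mrpl17 and Mrpl44 the changes were -0.19 and -0.14.

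Further members were chosen for their roles. Mrpl12, which forms the flexible stalk that recruits translation factors and also binds the mitochondrial RNA polymerase, read 8.73, 8.84, 8.63 and 8.70 on the wild-type arrays and 8.66, 8.63 and 8.51 on the hypomorph arrays. Hypomorph array 3 was below all others, arrays 1 and 2 were near the lowest wild-type array, and the change was -0.13. At the base of the stalk Mrpl11 had a change of -0.03 and Mrpl10 one of 0.04. Mrps12, part of the decoding centre, read 7.98, 7.96, 7.90 and 7.91 and 7.73, 7.91 and 7.82. Hypomorph array 2 lay within the wild-type range and the other 2 below it, and the change was -0.12 (exact permutation p = 0.0571). Among other small subunit genes the changes were -0.11 for Mrps15, -0.15 for Mrps16 and -0.14 for Mrps22, the last 2 of which are mutated in human mitochondrial disease. Mrps30, a large subunit protein by structure, was at -0.14, and Mrpl58, a peptidyl-tRNA hydrolase that is also part of the large subunit, at -0.09. Mrps36, at -0.14, carries the name but is known as a subunit of the 2-oxoglutarate dehydrogenase complex, and is counted in neither subunit here. Single arrays moved several of these changes: Mrps15 was at -0.03 and -0.20 without hypomorph arrays 1 and 2, Mrps16 at -0.08 without wild-type array 1 and -0.09 without hypomorph array 3, and Mrps22 at -0.08 without wild-type array 4 and -0.05 without hypomorph array 3. Mrpl58 ran from -0.16 without hypomorph array 2 to -0.01 without wild-type array 1. Without hypomorph array 3, Mrpl12 was at -0.08, Mrps30 at -0.08 and Mrps36 at -0.06, and Mrps12 was at -0.08 without hypomorph array 1.

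Some members varied between arrays of one group more than the groups differed. The largest SD over the 7 arrays was that of Mrps25, at 0.217, with 6.60, 7.19 and 6.63 in the hypomorph arrays around wild-type values of 6.87, 6.98, 6.75 and 7.02. Hypomorph array 2 was the highest of all and the other 2 were the lowest, and the change of -0.10 was 0.00 without hypomorph array 1. Mrps6 followed with an SD of 0.213 and Mrpl9 with 0.209. Mrpl9 read 8.67, 8.36, 8.40 and 8.28 on the wild-type arrays and 8.77, 8.47 and 8.18 on the hypomorph arrays, so that the highest and the lowest of its 7 values were both hypomorph arrays. The smallest SDs were those of Mrpl48, at 0.0324, Mrps2, at 0.0335, and Mrpl10, at 0.0587. Over the 74 genes the median SD was 0.118, compared with 0.153 for the other genes in the same range of levels.

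Several genes were read by more than 1 probe set, which allows the direction to be compared within a gene. Of the 33 such members, 10 had all probe sets lower, 2 had all higher and 21 had both signs. Of the 53 probe sets that were not the highest of their gene, 32 were lower, with changes from -0.28 to 0.28. The sign went with the level: 24 of the 29 with a mean above the median of all probe sets were lower, but 8 of the 24 below it. The whole array leaned the same way, if less: 54.4% of all 11312 probe sets above that median were lower, beside 49.3% of all probe sets. At an unadjusted p under 0.05, 4 of the 53 were lower and 2 higher, beside 3.34% and 4.35% of all probe sets. Mrpl15, with 7 probe sets, had changes from -0.26 to 0.13, and the 5 probe sets above the median were all lower while the 2 below it were higher. Mrpl11, at -0.03 by its highest probe set, was at -0.20 and -0.13 by the next and at 0.04 by a dim one. Mrpl41 had changes of -0.18 and -0.11, and 0.28 at mean log2 values of 2.70 and 2.98. Mrps2 was at -0.03 by its highest probe set, while its dim one, at 4.14 and 4.40, was higher by 0.25 without overlap (limma adjusted p = 0.644). Several of these probe sets carry the suffix by which the maker of the array marks possible binding of other transcripts, and which reading is nearer to the transcript level was not tested.

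**Figure D5:**
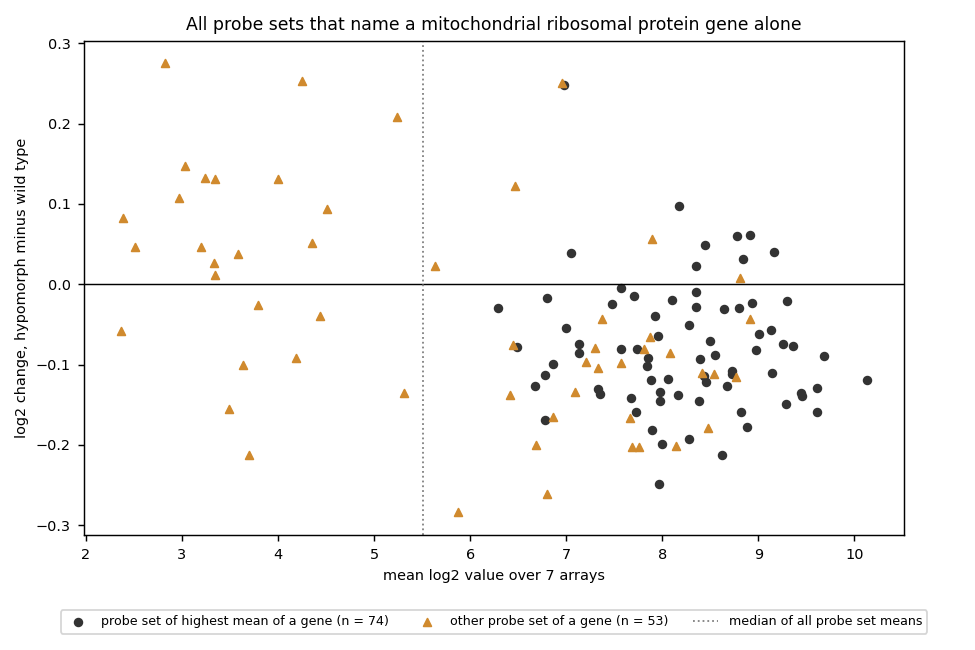
Log2 change (hypomorph minus wild type, vertical axis) against the mean log2 value over 7 arrays (horizontal axis) for all 127 probe sets that name a mitochondrial ribosomal protein gene alone, as circles for the probe set of highest mean of each of the 74 genes and triangles for the other 53. Right of the dotted line, the median of all probe sets, 24 of 29 triangles lie below 0, and left of it 8 of 24 do.

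The mitochondrial ribosome has further proteins whose symbols do not follow the pattern. Of 6 listed, 4 were measured under these symbols, and all 4 read lower (the listed Ict1 is the older symbol of Mrpl58). Ptcd3, a protein of the small subunit that binds RNA, read 7.74, 7.85, 7.73 and 7.91 on the wild-type arrays and 7.22, 7.82 and 7.30 on the hypomorph arrays. Hypomorph arrays 1 and 3 were well below the wild-type range and array 2 was inside it, with a change of -0.36 (interval -0.70 to -0.03, limma adjusted p = 0.644). Dap3, a GTP-binding protein of the small subunit, read 8.86, 8.99, 8.87 and 8.88 and 8.78, 8.86 and 8.38. Hypomorph array 3 was far below the other 6 arrays, and the change was -0.23. Gadd45gip1, at the end of the exit tunnel of the large subunit, was at -0.14 and Chchd1 of the small subunit at -0.06. The median of the 4 genes was -0.18, and -0.09 without hypomorph array 3.

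Genes that build and serve this ribosome also read mostly lower, as did 57.0% of the other genes in the members' range of levels. Of 29 listed assembly genes 21 were measured, and 15 were lower and 6 higher, with a median of -0.05 (-0.03 without wild-type array 1 or 3 or hypomorph array 1 or 3). The number lower ran from 12 without hypomorph array 1 to 18 without hypomorph array 2. Noa1, a GTPase of ribosome assembly, was at -0.24 and Afg3l2, a subunit of the m-AAA protease that matures Mrpl32, at -0.21. Oxa1l, the insertase to which the ribosome delivers new membrane proteins, was at 0.13, with every hypomorph array above every wild-type array. Of 15 translation factors and partners 8 were measured and 6 were lower, with a median of -0.08. The median was -0.20 without hypomorph array 2, and -0.02 with 4 lower without hypomorph array 3. Mtif2, the initiation factor that brings the first tRNA, read 8.13, 8.06, 8.08 and 8.09 on the wild-type arrays and 7.75, 8.02 and 7.73 on the hypomorph arrays, without overlap, at -0.26 (limma adjusted p = 0.644). Gfm1, the elongation factor that moves the ribosome along, was at -0.15. Mtfmt, which formylates the first methionine, was higher by 0.16 without overlap, although its nearest arrays read 6.174 (wild type) and 6.175 (hypomorph). Of 22 tRNA charging enzymes 13 were measured and 10 were lower, with a median of -0.13, led by Tars2 at -0.31 (limma adjusted p = 0.644), Kars at -0.23 and Gars at -0.22, of which the last 2 also serve the cytosol. No gene of these lists passed an adjusted p of 0.05.

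For the upkeep and transcription of mitochondrial DNA, 12 of 16 listed genes were measured, and 11 were lower, with a median of -0.14. Elac2, which trims the ends of tRNAs, read 6.70, 6.69, 6.50 and 6.56 on the wild-type arrays and 6.34, 6.40 and 6.38 on the hypomorph arrays, without overlap, at -0.24 (limma adjusted p = 0.644). Tfam, which packages mitochondrial DNA, read 8.18, 8.25, 8.08 and 8.08 and 8.04, 8.07 and 7.84, also without overlap although the nearest arrays were less than 0.01 apart, at -0.16. Polg, the DNA polymerase of mitochondria, was at -0.16. Without hypomorph array 3, 6 of the 12 genes were lower, with a median of -0.02. All 11 listed regulators of mitochondrial biogenesis were measured, and 6 were lower and 5 higher. Factors named with the promoter motifs were at -0.11 for Gabpa, -0.06 for Nrf1, 0.01 for Yy1 and -0.24 for Myc. Max, the partner of Myc, read 7.23, 7.26, 7.10 and 7.29 and 7.73, 7.57 and 7.70, and was the most separated of the regulators, at 0.44 (limma adjusted p = 0.445). Pprc1, a coactivator of the PGC-1 family, was at -0.27 (limma adjusted p = 0.644). No regulator passed the test.

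Respiratory chain and cytosolic ribosomal protein genes are given for comparison. The 79 nuclear genes of the respiratory chain and ATP synthase had 56 negative changes and a median of -0.04. It was -0.01 without wild-type array 1, -0.06 without wild-type array 3, and -0.07, -0.02 and -0.02 without hypomorph arrays 1, 2 and 3. The 49 cytosolic ribosomal protein genes had 38 negative changes and a median of -0.03, and -0.01 and -0.02 without wild-type array 1 and hypomorph array 3. For the mitochondrial ribosomal genes the median was -0.09 and ran from -0.11 to -0.07. Lower without overlap were 6 of the 79 respiratory chain, 5 of the 49 cytosolic and 3 of the 74 mitochondrial ribosomal genes, beside 2.50% of all probe sets. In each of the groups 0 were higher without overlap, beside 3.07%. The median SD over the 7 arrays was 0.102, 0.0530 and 0.118 in the same order. No test was made of the differences between these groups. The autophagy machinery, to which Atg16l1 belongs, had 10 of 28 measured genes lower and a median of 0.04, and the mitophagy list 3 of 11 and a median of 0.05. Leaving out wild-type array 1 or 3 or hypomorph array 1 put the autophagy median at 0.06, 0.06 and 0.07. The mitophagy median was 0.09, 0.01 and 0.02 without wild-type array 3, wild-type array 4 and hypomorph array 1.

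Of the members, 4 lie on chromosome 1 with Atg16l1. By gene order in GRCm38.p6, Mrpl44 is 65 protein-coding genes away from it, Mrps9 297, Mrps14 379 and Mrpl15 466. All 4 were lower, at -0.14, -0.12, -0.08 and -0.21. Mrpl44 and Mrpl15 are among the 8 genes with the lowest p, while the other 6 of these lie on other chromosomes.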

How the data were processed

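RNA of CD11c-positive spleen cells was measured on 7 arrays, 4 labelled wild type and 3 Atg16l1 hypomorph, 1 per sample, grouped by the genotype in the labels. Values are on the log2 scale as deposited, 1 for each probe set of an array, and the submitters' processing notes name Affymetrix Power Tools. The sources used here give neither its version nor the methods of summary, background correction and normalization between arrays. If arrays were normalized to equal distributions, a shift common to all genes would not show.

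Of 22690 probe sets, 64 controls and 1 without a value were left out. Gene names came from the array's annotation, updated by Entrez identifier in a RefSeq table of GRCm38.p6 (20350 of 20379 probe sets naming 1 gene were found), and promoters from RefSeq for the same assembly. The hypomorph was tested against wild type by limma (version 3.58.1, R version 4.3.3), using lmFit and eBayes without covariates, with Benjamini-Hochberg adjustment over all 22625 probe sets and a threshold of 0.05. For a single value, an exact permutation test (two-sided) used all 35 splits of the arrays. The fit was tested on simulated data with planted changes larger than that of any member, so that test does not cover shifts of the size seen here. Confidence intervals are at 95%, and precision is limited by how few arrays there were.

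Named genes were Atg16l1, the members without overlap, the 8 with the lowest p in each direction, 14 chosen for their role, the 3 with the largest and the 3 with the smallest SD, those whose probe sets differed in sign with 1 at an unadjusted p under 0.05, mitochondrial ribosomal genes with other symbols, and up to 3 genes per list of mitochondrial translation, transcription and biogenesis with the lowest p. Marker genes, Yy1, Nrf1, Gabpa and the chromosome 1 genes were named outside this rule. The members and lists were chosen with earlier results of these data known, so their counts are descriptions with no test. Alternatives were centring, quantile normalization, trend and robust settings, array weights, a replicate block, an added 32, a filter on dim probe sets, other probe set rules, unrevised symbols and leaving out each array. A planned comparison of protein sequences was not used here.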

Additional observations from a re-analysis of the deposited data

Results flagged for a closer look

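Among the 4 wild-type arrays, 1 array stood far from the others for 6 of 57 values tested (Atg16l1, the member summaries and the named genes), by a gap whose share of the group's range exceeded Dixon's 95% critical value. Chance gives such a gap in about 1 of 20 groups, and 5 of all 74 members had one. The hypomorph, with 3 arrays, was not examined in this way.

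Mrpl34 read 8.21 in wild-type array 1 and 7.88 to 7.90 in the other 3. Mrps16 read 9.57 in wild-type array 1, where the other 3 had the same deposited value of 9.29, and its change of -0.15 was -0.08 without that array. Dap3 read 8.99 in wild-type array 2 and 8.86 to 8.88 in the others. Chchd1 read 8.81 in wild-type array 2 and 8.74 in each of the others. Mtfmt read 6.00 in wild-type array 2 and 6.15 to 6.17 in the others. Oxa1l read 6.70 in wild-type array 4 and 6.91 to 6.93 in the others.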

How the results depend on the processing

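The count of members past an adjusted p of 0.05 was 0 under all 17 alternatives, with 0.170 as the lowest adjusted p of a member under those that were fitted, and the counts of members with an unadjusted p under 0.05 are given next. Against 1 lower member in the comparison reported, 8 were lower with 32 added to the linear values and 5 of 127 with all probe sets counted. When single arrays were left out, 0 to 8 were lower. There were 8 without wild-type array 3, 2 without wild-type array 4, and 1 without wild-type array 1 or 2. Without hypomorph arrays 1, 2 and 3 there were 3, 7 and 0. Of all 22625 probe sets, 755 were lower at this p in the comparison reported and 811 with 32 added. Without wild-type arrays 1 to 4 these counts were 546, 431, 585 and 544, and without hypomorph arrays 1 to 3 497, 1578 and 737. Against 0 higher members, 2 of 127 were higher with all probe sets counted, and 0 to 1 when single arrays were left out (1 without wild-type array 1). Over all 22625 probe sets, 984 were higher at this p in the comparison reported and 860 without wild-type array 1. The number with a negative change was 57 to 66 of 74 and the median change -0.11 to -0.07 when single arrays were left out, and 60 to 66 and -0.09 to -0.08 under the other alternatives that keep 74 values. Atg16l1 had changes between -0.49 and -0.36, each with an adjusted p above 0.05.

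With the replicate number as a block, the count of lower members at an unadjusted p under 0.05 was 0 and the median change -0.09. No label pairs the arrays, and the deviations of arrays with the same number correlated at 0.102, 0.0977 and 0.339. Wild-type arrays 1 and 2 each correlated better with a hypomorph array of another number, so the numbers were not taken as pairs.

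Of the 32 named members 23 kept the sign of their change under all 15 alternatives for single genes, as did the 19 other named genes. None was past the threshold in any of 765 gene values. The sign turned for Mrps18a with quantile normalization (0.016) and array weights (0.00058), for Mrps24 (-0.02) and Mrpl9 (-0.00087) with the replicate block, and with each gene taken as the average of its probe sets for Mrps24 (-0.042), Mrpl42 (-0.0089), Mrpl3 (-0.02) and Mrps2 (0.11). When single arrays were left out, the change ran from -0.056 to 0.042 for Mrps18a, from -0.020 to 0.081 for Mrps24, from -0.10 to 0.19 for Mrpl9, from -0.058 to 0.16 for Mrpl42, from -0.056 to 0.086 for Mrpl3, from -0.045 to 0.20 for Mrps23, from -0.29 to 0.0043 for Mrps25 and from -0.092 to 0.045 for Mrpl11. The cause was not tested. Of the members' further probe sets, 24 had a mean below the median of all probe sets, and 8 of these were lower.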
